A study of Mus musculus with 30 samples.

Results

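The genes described here are 23 immediate early genes and 9 heat shock genes of the mouse, 32 in all, chosen by symbol as well-known members of the cell's rapid transcriptional response to stimulation and to protein-damaging stress. They were looked up among the 14997 genes of a table of captured tissue and the 26005 genes of a table of cultured spheres. All 32 were in the sphere table and 28 in the captured table, where Fosb, Fosl2, Egr2 and Egr3 were listed at no age. The captured tissue was midbrain floor plate of Lmx1aCreERT2; R26TRAPC mice, taken by laser capture microdissection at E11 (4 libraries), E13 (5), E18 (5) and P70 (6). All captured groups carried both alleles, so there was no group without them; CreERT2 under Lmx1a marks cells that expressed Lmx1a when the recombinase was active. The spheres were grown in vitro from adult mice and are labelled MB (5 libraries) and FB (5 libraries); the design names midbrain aqueduct as the source of ependymal spheres and lateral ventricle as the source of neurospheres, but the labels do not spell out either abbreviation, and no genotype is given for them.

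Immediate early genes are transcribed within minutes of a stimulus from factors already present in the cell, and need no new protein synthesis for it. They encode AP-1 subunits and other transcription factors, followed by products that end the response, such as phosphatases and mRNA-destabilising proteins. Heat shock genes encode chaperones that fold or refold proteins; heat shock factor 1 raises many of them under stress, while others are made constantly at a high level. Both groups are also known to respond to the handling of tissue and to cell dissociation.

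Depth in the captures was 2038732 to 4445150 reads recovered from the deposited values at P70, and 4510585 to 6841903 over the libraries of the other ages; in spheres it was 6327198 to 9291311 deposited counts. Intervals and floors from such reads would cover counting error only, since the libraries had no molecular identifiers. The labels tie no library to an animal or culture, so p-values measure only the spread between these libraries, and any captures from 1 animal would make them too small. The captured table lists a gene at a given age only if the mean of that age reaches 1 deposited unit; the values behave as reads per kilobase scaled to library size. The labels record no day of dissection or capture, so their part was not tested, and in bulk tissue fewer cells of a type and less RNA per cell cannot be told apart. Of the captures, 2 libraries stood apart from their own age. The chi-square per degree of freedom between recovered reads of pairs of libraries was 81.6 to 109 for P70 replicate 6 and 26.7 to 61.4 among the other P70 libraries, and it was 63.2 to 112 for E18 replicate 3 and 25.1 to 46.0 among the other E18 libraries.

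RefSeq promoter windows (GRCm38.p6) were found for 26 of the 32 genes; those of Hsp90aa1, Hspa8, Ier2, Myc, Egr1 and Egr3 were not used. The 250 bases before each start were searched on both strands. A heat shock element pair, written GAANNTTC or TTCNNGAA, stood before 6 of 7 heat shock genes (Hspa1a, Hspa1b, Hspb1, Hspd1, Hspe1, Hsph1) and 3 of 19 immediate early genes (Egr2, Fosl2, Jun), against 14.5% of the 27025 genes with a window. The serum response element, the CArG box bound by serum response factor, stood before Egr2 and Zfp36 and before 1.62% of all genes. The cyclic AMP response element TGACGTCA stood before Dusp1 alone among the members, and before 1.77% of all genes. The AP-1 site TGANTCA stood before Zfp36l1 alone among them, and before 7.82% of all genes. A match is only these letters in this window. The stretches below are shown because they carry the motifs of genes whose values are given below, and to compare Hspa1a with Hspa1b; capitals mark the motifs. The first pair is a single stretch of chromosome 1 read on both strands, since Hspe1 and Hspd1 are transcribed in opposite directions with overlapping 5′ ends, from starts 111 bases apart in GENCODE vM21, and share their heat shock elements (chr1:55088053-55088082); it lies within an Hspd1 exon of that annotation, and without strand the reads of the overlap cannot be assigned to either gene.
Hspe1 (plus strand, 95 to 66 bases before the start): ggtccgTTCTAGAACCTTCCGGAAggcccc
Hspd1 (minus strand, the same bases): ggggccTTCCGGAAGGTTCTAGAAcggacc
Hspb1 (plus strand, chr5:135887769-135887918): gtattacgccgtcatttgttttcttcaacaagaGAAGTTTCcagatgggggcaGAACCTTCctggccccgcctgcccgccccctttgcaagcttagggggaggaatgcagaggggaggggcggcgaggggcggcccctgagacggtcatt
Hspa1a (minus strand, chr17:34972157-34972306): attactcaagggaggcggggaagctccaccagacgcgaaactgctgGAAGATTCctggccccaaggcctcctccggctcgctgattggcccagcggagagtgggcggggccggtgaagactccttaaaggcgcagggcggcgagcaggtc
Hspa1b (minus strand, chr17:34959239-34959388): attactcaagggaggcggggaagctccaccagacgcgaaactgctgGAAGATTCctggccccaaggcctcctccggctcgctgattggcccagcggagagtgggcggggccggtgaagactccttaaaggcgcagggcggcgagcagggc
Jun (minus strand, chr4:95052223-95052372): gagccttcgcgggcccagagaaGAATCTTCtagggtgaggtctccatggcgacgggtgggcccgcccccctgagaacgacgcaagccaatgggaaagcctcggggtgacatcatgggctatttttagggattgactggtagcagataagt
Egr2 (plus strand, chr10:67537749-67537868): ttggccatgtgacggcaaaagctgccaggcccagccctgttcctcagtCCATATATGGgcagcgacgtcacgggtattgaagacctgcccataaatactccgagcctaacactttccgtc
Dusp1 (minus strand, chr17:26508532-26508622): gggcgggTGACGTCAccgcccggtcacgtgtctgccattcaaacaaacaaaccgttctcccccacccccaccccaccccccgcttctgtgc
Hspb1 carries a pair of separate elements. The windows of Hspa1a and Hspa1b are the same in 247 of 250 bases, and since the genes themselves are near-identical copies, reads may have been split between them and both are uncertain below. Hspa8 has processed pseudogene copies and is uncertain for the same reason.

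In the captures, more immediate early genes passed at P70 against E18 than at the earlier steps, while heat shock genes passed at E18 against E13 as well. Of the 17 immediate early genes tested between P70 and E18, 8 rose and 1 fell at P70, where 40.8% of the 12353 genes tested passed, 16.9% higher and 24.0% lower (limma, adjusted p under 0.05). Of the 9 heat shock genes, 4 rose and 1 fell. Without P70 replicate 6, 10 immediate early genes rose and 1 fell, and 3 heat shock genes rose and 1 fell. Without E18 replicate 3 these numbers were 6 and 1, and 4 and 1. Over all genes 5186 were called without P70 replicate 6, against 5042 with every library, and 4395 to 5186 on leaving out any 1 library. The median log2 change was 0.72 for the immediate early genes and 0.67 for the heat shock genes, beside −0.14 for all genes. Centring each library on its median brought that last value to about 0 (−0.003), and split the calls over all genes into 2523 higher and 2261 lower at P70, where the deposited scale gave 2082 higher and 2960 lower; no called member changed sign under it. Between E13 and E11 none of 14 immediate early and 7 heat shock genes passed, beside 20.9% of 11567 genes, 9.44% higher and 11.5% lower (limma). Of each group, 2 had an unadjusted limma p under 0.05, beside 3822 of all 11567 genes. By edgeR on recovered reads 4 members were called in all, beside 3037 of 9029 genes. Median changes between E13 and E11 were 0.01 for the immediate early genes, −0.53 for the heat shock genes and −0.04 for all genes. Between E18 and E13, 2 immediate early genes rose and 2 fell of 14, and 2 heat shock genes rose and 2 fell of 7, beside 47.4% of all genes, 22.4% higher and 25.0% lower. The median changes then were 0.23, 0.48 and −0.04 for the immediate early genes, the heat shock genes and all genes. Over the whole interval, P70 against E11, 7 immediate early genes rose and 1 fell of 16 and 3 heat shock genes rose and 3 fell of 7, beside 64.9% of all genes, 24.6% higher and 40.3% lower. Median changes over that interval were 0.67 for the immediate early genes, −0.17 for the heat shock genes and −0.30 for all genes. These comparisons share libraries of the ages between them.

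**Figure D1:**
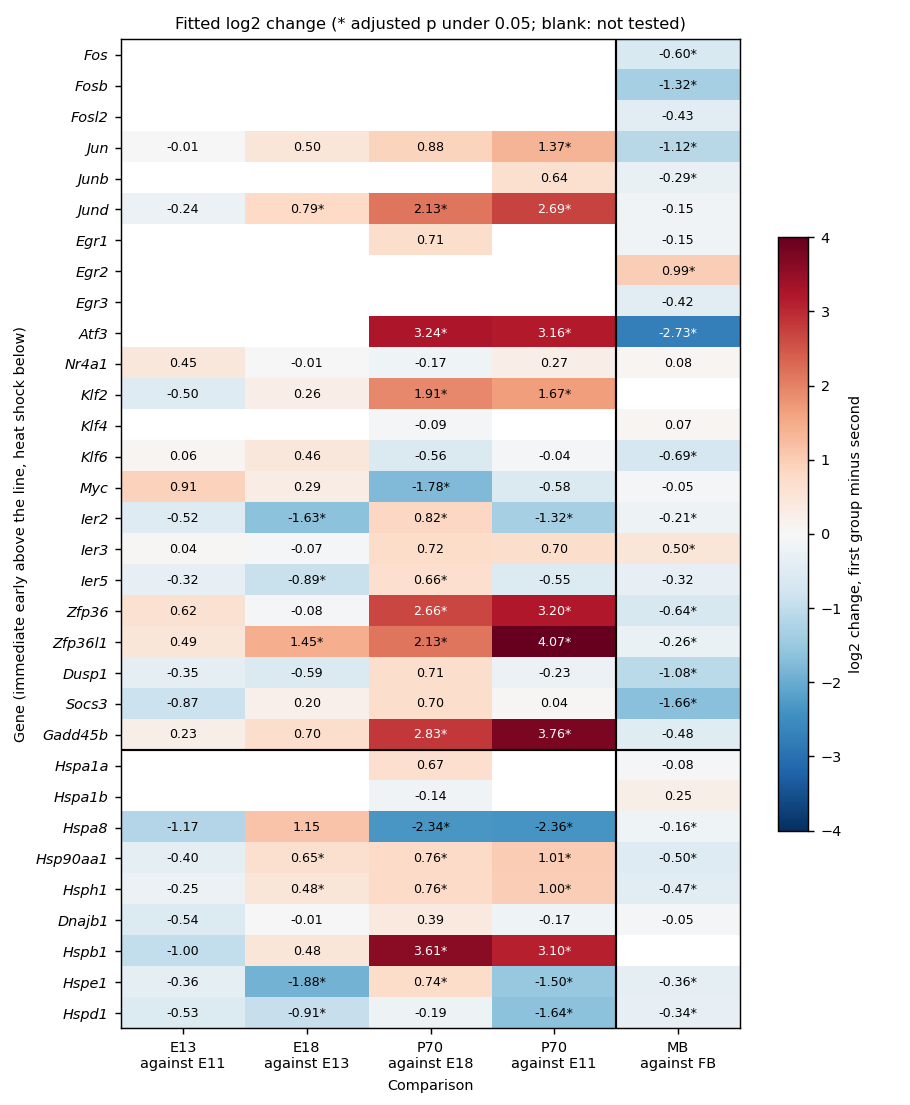
Fitted log2 change of each gene (rows) in each comparison (columns), first group minus second, in red where higher in the first group and blue where lower; an asterisk marks an adjusted p under 0.05 (limma for ages, edgeR for MB against FB) and a blank was not tested. P70 against E18 is mostly red among the immediate early genes and MB against FB mostly blue in both groups. The asterisk of Atf3 in MB against FB is not read as a result, since Atf3 entered that test through its FB counts alone.

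AP-1, a dimer of Fos and Jun family proteins, was low in the captures apart from Jund. Fos, the subunit most used as a mark of recent activity, was listed only at P70, at 1.78, 2.58 and 3.73 units as the lowest, median and highest of 6 libraries, which rest on 6 to 26 reads each. Jund, the subunit made most constantly in resting cells, had 16.8, 21.9, 15.8 and 21.1 units at E11, and 11.9, 17.8, 12.97, 15.1 and 23.0 units in the E13 libraries. In the E18 libraries Jund had 27.1, 25.8, 35.6, 21.6 and 31.8 units, while at P70 its lowest, median and highest values were 80.4, 124 and 214 units. Every P70 library lay above every library of the other ages. Jund rose at E18 against E13 by 0.79 ± 0.23 (log2, SE; limma adjusted p = 0.00595) and at P70 against E18 by 2.13 ± 0.22 (adjusted p = 1.22e-07).

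Jun, the partner of Fos in the inducible dimer, ranged from 5.65 to 19.9 units at P70 with a median of 12.6, against 3.23 to 4.77 units at E11, and these groups did not overlap. It rose by 1.37 ± 0.38 between these ages (limma adjusted p = 0.00328). At E18 it had 15.4, 5.21, 3.275, 3.86 and 6.40 units, so that 1 library reached into the P70 range, and P70 against E18 gave 0.88 ± 0.36 (adjusted p = 0.0536; 0.0077 to 0.14 over the alternatives, 7 of which called it, that without P70 replicate 6 among them). GENCODE vM21 has an antisense gene, Junos, that starts 688 bases from the start of Jun, and the libraries did not mark strand. Junb was listed at E11 and P70 only. It varied from 0 to 11.0 units at P70 and from 0.468 to 1.70 units at E11, and P70 against E11 did not pass (0.64 ± 0.64, adjusted p = 0.398).

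**Figure D2:**
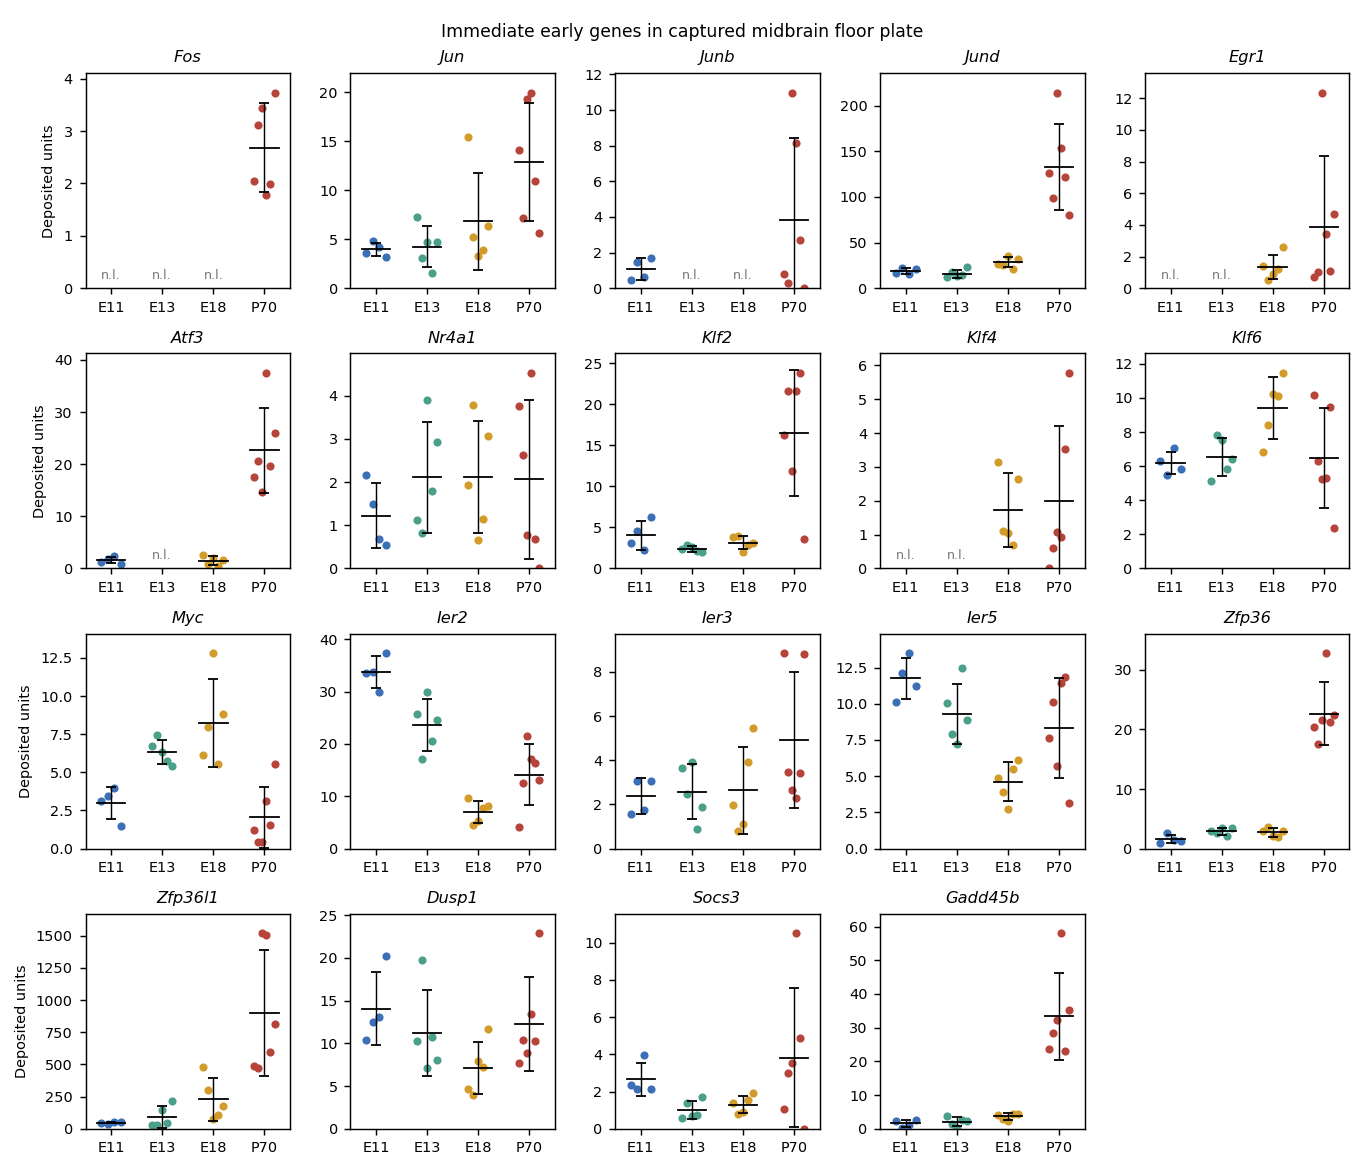
Deposited units (vertical axis, from 0, a scale for each panel) of the 19 immediate early genes listed at any age, by age (horizontal axis; 4, 5, 5 and 6 libraries). Points are libraries, bars are the mean ± SD, and n.l. means not listed at that age; Jund, Atf3, Zfp36 and Gadd45b have every P70 library above all others.

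Among the other immediate early transcription factors, Atf3 and Klf2 rose at P70 and Myc fell. Atf3, a stress-induced factor of the ATF/CREB family, was at 14.6, 20.1 and 37.5 units (lowest, median, highest) at P70, against 2.57, 0.861, 2.03, 0.479 and 1.68 units at E18. The groups did not overlap, and the change was 3.24 ± 0.28 (limma adjusted p = 8.26e-08), among the largest of the 32 genes. At E11 it had 0.907 to 2.31 units, and at E13 it was not listed.

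Klf2, a Krüppel-like factor known from endothelium and quiescent lymphocytes, was at 3.64, 19.0 and 23.8 units at P70, against 3.82, 3.98, 1.99, 2.86 and 3.13 units at E18. All P70 libraries except replicate 6, which lay within the E18 range, were above every E18 library. The change was 1.91 ± 0.33 (limma adjusted p = 0.000108), and 2.26 without replicate 6 (adjusted p = 2.61e-07; 2.61e-07 to 0.00142 over the alternatives). Beside this, the summed level of 12 endothelial and mural markers was 26.1 to 82.9 units at P70 and 30.9 to 49.2 units at E18. The sums cover different genes, with 6 markers listed at P70 and 8 at E18. Cdh5, Tek and Tie1 were listed at neither age, Pecam1, Kdr and Pdgfrb not at P70, and Flt1 not at E18. None of the 5 markers tested passed between these ages. Their part in the change was not tested.

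Myc, the growth-promoting factor, was the only immediate early gene to fall at P70 against E18. Its lowest, median and highest values were 0.401, 1.38 and 5.52 units at P70, against 6.13, 7.99, 12.8, 5.53 and 8.81 units at E18, without overlap (−1.78 ± 0.33, limma adjusted p = 0.000209). The highest P70 value was that of replicate 6, and the change without it was −2.05. At E13 it had 5.41 to 7.44 units and at E11 1.495 to 3.97 units, also without overlap; the change was 0.91 ± 0.36 (adjusted p = 0.0816), past the threshold under 4 of the alternatives (0.0036 to 0.24).

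Egr1 and Klf4, both zinc finger factors, were listed at E18 and P70 only. Egr1 had 0.698 to 12.4 units at P70 and 0.554 to 2.62 units at E18, which overlapped (0.71 ± 0.48, limma adjusted p = 0.259). Klf4 had 0 to 5.78 units at P70 and 0.700 to 3.16 units at E18 (−0.09 ± 0.46, adjusted p = 0.9). Nr4a1, an orphan nuclear receptor, and Klf6 were listed at all 4 ages, and neither passed in any of the 4 age comparisons. Nr4a1 means were 1.23, 2.11, 2.12 and 2.06 units from E11 to P70, and those of Klf6 were 6.18, 6.54, 9.41 and 6.48 units. Klf6 gave 0.46 ± 0.26 at E18 against E13 (limma adjusted p = 0.147, and 0.011 to 0.27 over the alternatives). At P70 against E18 it gave −0.56 ± 0.25 (adjusted p = 0.0715, and 0.025 to 0.28 over the alternatives). In each of these comparisons 3 alternatives called it.

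Of the 8 feedback and signalling genes, 5 rose at P70 against E18 and none fell. Zfp36 (tristetraprolin) binds AU-rich elements and speeds the decay of immediate early and cytokine mRNAs. It had 17.5, 21.4 and 32.8 units at P70, against 3.02, 3.62, 2.16, 1.88 and 2.96 units at E18. Every P70 library was above every E18 library, and the change was 2.66 ± 0.21 (limma adjusted p = 3.67e-09). At E13 and E11 Zfp36 had 2.08 to 3.53 and 0.975 to 2.65 units. E13 against E11 gave 0.62 ± 0.23 (limma adjusted p = 0.0586), which 5 of the alternatives called (0.026 to 0.19).

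Zfp36l1, its paralogue with the same class of RNA-binding zinc fingers, was the most abundant member at P70. Its values were 476, 708 and 1519 units at P70, against 483, 300, 75.7, 103 and 176 units at E18. Before that it had 32.9, 27.9, 149, 42.3 and 213 units at E13, and 46.5, 40.4, 51.5 and 48.9 units at E11. Only 1 E18 library reached the P70 range, and the P70 change was 2.13 ± 0.51 (limma adjusted p = 0.00196). E18 against E13 gave 1.45 ± 0.53 (adjusted p = 0.0278), but it did not pass without any 1 of 5 libraries (E13 replicates 1, 2 and 4, E18 replicates 1 and 2), for the 2 ages alone, or by edgeR on recovered reads; adjusted p ranged from 0.0046 to 0.095.

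Gadd45b, a growth arrest and DNA damage response protein, had 23.0, 30.3 and 58.0 units at P70, against 4.22, 3.02, 2.22, 4.48 and 4.49 units at E18. These groups did not overlap (2.83 ± 0.33, limma adjusted p = 7.07e-07). The E13 libraries had 0.293 to 3.92 units and the E11 libraries 0.308 to 2.48 units, on few reads.

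Ier2 and Ier5, nuclear immediate early proteins of a single family, fell between E13 and E18. Ier2 had 33.6, 33.8, 30.0 and 37.4 units at E11, 25.8, 17.2, 30.0, 20.6 and 24.5 units at E13, and 9.65, 4.47, 5.28, 7.77 and 8.10 units at E18. At P70 its lowest, median and highest values were 4.22, 14.7 and 21.5 units. All E18 libraries were below all E13 libraries, and Ier2 fell by 1.63 on the log2 scale (SE 0.29, limma adjusted p = 8.17e-05). Its P70 rise over E18, 0.82 ± 0.28 (adjusted p = 0.0214), did not pass without E18 replicate 2 or 3 or P70 replicate 3, for the 2 ages alone, or by edgeR on recovered reads (0.00024 to 0.086). Ier5 means were 11.7, 9.31, 4.62 and 8.31 units from E11 to P70. It fell at E18 against E13 (−0.89 ± 0.27, adjusted p = 0.00938), again without overlap. The P70 rise of Ier5 (0.66 ± 0.26, adjusted p = 0.0453) was lost under 10 of the alternatives, which included leaving out any 1 of 7 libraries (E18 replicates 1, 2 and 3, P70 replicates 1, 2, 4 and 5), with adjusted p from 0.0022 to 0.13.

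Dusp1, the phosphatase that switches off MAP kinases, passed in no age comparison. It had 7.73, 10.3 and 22.9 units at P70, against 4.67, 3.94, 7.96, 7.18 and 11.7 units at E18 (0.71 ± 0.29, limma adjusted p = 0.0555; 0.023 to 0.16 over the alternatives, 5 of which called it). Its neighbour Ergic1 on the opposite strand starts 639 bases away with overlapping starts and fell at P70 (−0.99 ± 0.28, adjusted p = 0.00641). Socs3, the feedback inhibitor of cytokine receptors, ranged from 0 to 10.51 units at P70 and from 0.781 to 1.91 units at E18. Ier3 ranged from 2.28 to 8.85 units at P70 and from 0.781 to 5.44 units at E18. Neither passed; Socs3, at 0 in P70 replicate 6, passed under 3 of the alternatives, that without this library among them (0.0145 to 0.59).

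Microglial markers rose at E13 against E11 and again at P70 against E18. At E13 against E11 all 10 of those tested rose, while no member passed. Of 12 such markers, 5 rose at P70 against E18 and none fell; their summed level was 483 to 667 units at P70 and 127 to 615 units at E18, which overlapped, and 12 of 12 were listed at both ages. Of 10 markers of ependymal and motile-ciliated cells, 7 rose and none fell (15703 to 23787 units summed at P70, and 6953 to 10127 units at E18), and of 10 astrocyte markers 5 rose and 2 fell. Mature neuron markers went down, 8 of 12 falling (1001 to 1465 units at P70, and 2051 to 4878 units at E18). The part of these cell types in the levels of the 32 genes was not tested. Lmx1a-lineage floor plate was checked on 13 markers, of which Shh, Corin and Slit1 were not listed at P70 and Lmx1b was not listed at E13 or E18; their summed level was 161 to 211 units at P70 and 495 to 705 units at E18.

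Of the 7 cytosolic chaperones tested at P70 against E18, 3 rose (Hsp90aa1, Hsph1 and Hspb1) and 1, Hspa8, fell; Hspa1a, Hspa1b and Dnajb1 did not pass. Hsp90aa1, the inducible Hsp90, had 339, 416 and 733 units at P70, against 418, 238, 168, 241 and 310 units at E18. It rose by 0.76 ± 0.21 (limma adjusted p = 0.0072) although 1 E18 library lay within the P70 range. Against the 123 to 227 units of E13 it rose at E18 by 0.65 ± 0.22 (adjusted p = 0.0199), a call lost without E13 replicate 4 or E18 replicate 1 (0.004 to 0.074).

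Hsph1 (Hsp105), the nucleotide exchange factor of Hsp70, had 126, 135 and 184 units at P70, against 83.1, 73.6, 103, 83.3 and 75.9 units at E18. At E13 it had 65.6, 67.9, 61.1, 49.5 and 53.9 units. Both steps were without overlap. It rose by 0.76 ± 0.13 at P70 (limma adjusted p = 9.14e-05) and by 0.48 ± 0.14 at E18 against E13 (adjusted p = 0.00592).

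Hspb1 (Hsp25), a small heat shock protein that holds unfolded proteins and binds actin, showed the largest fitted change of any member between P70 and E18. It had 25.8, 44.8 and 199 units at P70, against 4.13, 2.19, 7.76, 2.44 and 2.44 units at E18. Every P70 library was above every E18 library (3.61 ± 0.49, limma adjusted p = 5.41e-06); 1 P70 library was far above the other 5, which had at most 60.1 units. At E13 Hspb1 had 0 to 5.06 units, and at E11 3.46 to 11.1 units.

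Hspa8 (Hsc70), the constitutive Hsp70 of the cytosol, fell. It had 16.4, 36.7 and 213 units at P70, against 198, 265, 252, 240 and 271 units at E18, and 1 P70 library, replicate 6, lay within the E18 range. The change was −2.34 ± 0.53 (limma adjusted p = 0.00134), and −2.77 without replicate 6. Its replicates stood apart at the earlier ages as well: 55.2, 320, 97.1, 98.4 and 91.7 units at E13, and 391, 346, 415 and 65.2 units at E11. E13 against E11 gave −1.17 ± 0.59 (adjusted p = 0.175), and it passed without E11 replicate 4 or with library weights (0.016 to 0.39 over the alternatives).

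The classic stress-inducible Hsp70 genes were low. Hspa1a was listed at E18 and P70 only, with 1.19 to 21.1 units at P70 and 1.81 to 5.90 units at E18, and Hspa1b with 0 to 7.78 units at P70 and 0.364 to 6.45 units at E18. Neither passed (limma adjusted p = 0.324 for Hspa1a and 0.866 for Hspa1b), on at most 23 and 15 reads in a library. Dnajb1 (Hsp40), the J-protein partner of Hsp70, passed in no comparison of ages. It had 37.2, 42.5, 37.0, 43.7 and 38.4 units at E13, against 58.0, 54.9, 58.1 and 62.2 units at E11; these groups did not overlap, but the change of −0.54 ± 0.21 did not pass (adjusted p = 0.078, with 3 alternatives calling it). At P70 it had 34.4 to 83.3 units, and at E18 31.8 to 49.6 units (0.39 ± 0.19, adjusted p = 0.118).

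**Figure D3:**
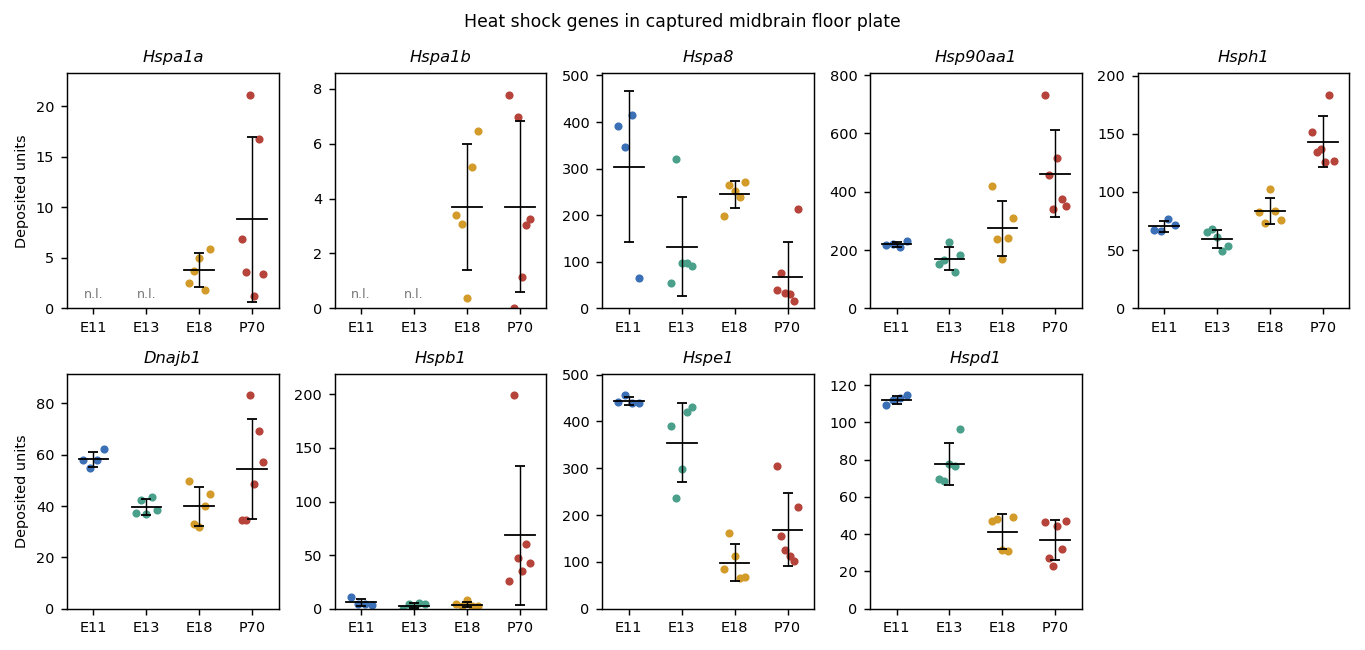
Deposited units (vertical axis, from 0, a scale for each panel) of the 9 heat shock genes by age (horizontal axis; 4, 5, 5 and 6 libraries). Points are libraries, bars are the mean ± SD, and n.l. means not listed; Hspe1 and Hspd1 are highest at E11, while Hsph1 and Hspb1 have every P70 library above all others.

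Hspd1 (Hsp60) and its lid Hspe1 (Hsp10) form the chaperonin of the mitochondrial matrix, and both fell before birth. Hspe1 had 441, 456, 438 and 439 units at E11, 389, 237, 298, 419 and 430 units at E13, and 85.0, 161, 113, 65.9 and 68.2 units at E18. All E13 libraries were below all E11 libraries, but that change did not pass (−0.36 ± 0.29, limma adjusted p = 0.424). All E18 libraries were below all E13 libraries, and Hspe1 fell by 1.88 on the log2 scale (SE 0.27, limma adjusted p = 6.85e-06). At P70 its lowest, median and highest values were 101, 140 and 305 units. The rise over E18 (0.74 ± 0.26, adjusted p = 0.0269) was lost under 9 of the alternatives, which included leaving out any 1 of 5 libraries (E18 replicates 1, 4 and 5, P70 replicates 1 and 6), and adjusted p ranged from 0.0069 to 0.083; with the replicate number as a block it did not pass either.

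Hspd1 had 110, 112, 113 and 115 units at E11, 69.7, 68.6, 77.8, 76.5 and 96.3 units at E13, and 46.9, 48.1, 31.5, 31.2 and 49.4 units at E18. Its E13 libraries were all below those of E11, but that change did not pass (−0.53 ± 0.21, limma adjusted p = 0.0725). Of the alternatives, 4 called that change (0.0045 to 0.14). Its E18 libraries were all below its E13 libraries (−0.91 ± 0.20, limma adjusted p = 0.000589). At P70 it had 22.9, 38.4 and 46.9 units, which overlapped E18 (−0.19 ± 0.19, adjusted p = 0.444). Over the whole interval from E11 both genes fell, with changes of −1.501 ± 0.277 for Hspe1 (limma adjusted p = 6.57e-05) and −1.64 ± 0.20 for Hspd1 (adjusted p = 3.1e-07).

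In the E18 against E13 comparison, in which both chaperonin genes fell, all 13 cell cycle genes tested fell too, as did 9 of 10 protein synthesis and nucleotide synthesis factors and 7 of 8 endothelial and mural markers. The 4 erythroid markers in the table summed to 1.62 to 6.85 units at E18 and 3614 to 13456 units at E13. Their part in the changes of the members was not tested.

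Since the pair shares a start region, the ratio of Hspe1 to Hspd1 was taken in each library. From E11 to P70, in order of age, it averaged 3.95 ± 0.12, 4.56 ± 0.95, 2.45 ± 0.97 and 4.66 ± 1.56 (SD, n = 4, 5, 5 and 6). E18 was lower than E13 by a two-sided exact permutation test on the log2 ratio (p = 0.0159), and P70 was higher than E18 (p = 0.0303). After adjustment over the 5 comparisons made, neither passed (adjusted p = 0.0758 for both). In spheres, where values are not per length, the ratio of CPM (counts scaled to library size) was 0.297 ± 0.027 in MB and 0.301 ± 0.023 in FB (SD, n = 5 each, exact permutation p = 0.786). Per kilobase of exon, Hspe1 and Hspd1 averaged 100 and 189 CPM in MB, and 128 and 239 CPM in FB. Hspe1 thus stayed below Hspd1 in spheres per length, while it was above Hspd1 in every captured library. What sets the captured and sphere values of this pair apart was not tested.

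**Figure D4:**
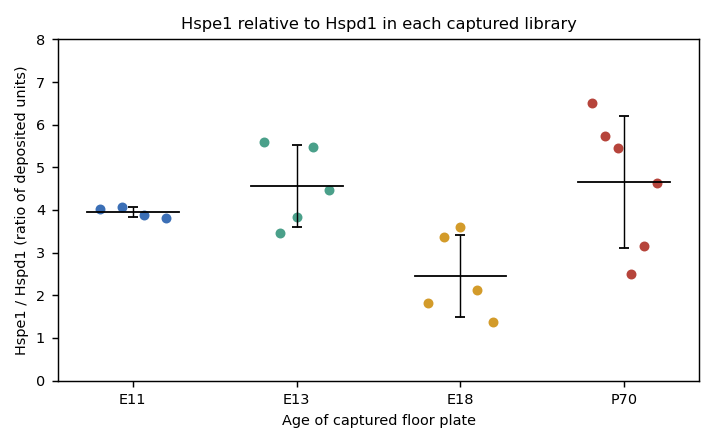
Ratio of Hspe1 to Hspd1 in deposited units (vertical axis, from 0) in each captured library by age (horizontal axis). Points are libraries and bars the mean ± SD; P70 libraries lie between 2.51 and 6.51 and those of E18 between 1.38 and 3.59.

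In the spheres, most immediate early genes that passed were lower in MB than in FB. Of 22 tested, 11 were lower in MB and 2 higher (10 and 2 of 21 without Atf3, which entered the test through its FB counts alone), where 29.6% of the 12886 genes tested passed, 14.3% lower and 15.3% higher (edgeR, adjusted p under 0.05). Of 8 heat shock genes tested, 5 were lower in MB and none higher. The median log2 difference was −0.37 for immediate early genes (−0.32 without Atf3), −0.25 for heat shock genes and −0.01 for all genes with a unique symbol. Klf2 and Hspb1 were too low to be tested, with at most 4 and 19 counts in any library. Among the AP-1 genes, Fos and Jun had the smallest p.

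Fos had 477, 468, 403, 465 and 471 CPM in MB, against 685, 729, 646, 687 and 705 CPM in FB. No MB library reached the lowest FB library, and the difference was −0.60 ± 0.06 (log2, SE; edgeR adjusted p = 7.68e-08). Jun had 136, 138, 160, 130 and 152 CPM in MB, against 322, 330, 290, 293 and 322 CPM in FB. It differed by −1.12 ± 0.07 (adjusted p = 2.68e-10), also without overlap.

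Fosb, the Fos paralogue best known from neurons, averaged 8.65 ± 2.43 CPM in MB and 21.7 ± 4.5 CPM in FB (SD, n = 5 each; −1.32 ± 0.23, edgeR adjusted p = 0.00016). Junb averaged 75.2 ± 6.6 CPM in MB and 92.3 ± 7.3 CPM in FB, and its difference of −0.29 ± 0.09 (adjusted p = 0.0174) did not pass without FB replicate 4 (0.01 to 0.052). Fosl2 and Jund did not pass. Jund, so abundant in the P70 captures, had 3 to 29 counts in any sphere library, or 2.04 ± 1.23 CPM in MB and 2.27 ± 0.98 CPM in FB.

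Egr2 (Krox20), a zinc finger factor of hindbrain and Schwann cells, differed in the other direction. It had 51.1, 65.6, 60.4, 49.4 and 65.3 CPM in MB, against 33.3, 32.02, 27.1, 26.8 and 28.1 CPM in FB. The groups did not overlap (0.99 ± 0.13, edgeR adjusted p = 4.85e-06). Its relatives Egr1, at 879 ± 92 CPM in MB and 974 ± 40 CPM in FB, and Egr3, at 5.80 ± 1.39 CPM in MB and 7.75 ± 3.5 CPM in FB, did not pass (adjusted p = 0.0797 and 0.388); Egr1 passed without MB replicate 5.

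Atf3 had 0 to 9 counts in MB and 14 to 64 counts in FB, and passed the filter on low counts through FB only, so that its difference is given with no test. Klf6 averaged 92.7 ± 7.4 CPM in MB and 149 ± 10 CPM in FB and was lower in MB (−0.69 ± 0.08, edgeR adjusted p = 1.44e-06). Nr4a1, Klf4 and Myc did not pass, with differences of 0.08, 0.07 and −0.05.

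Among the feedback genes, Dusp1 had 63.1, 75.0, 74.6, 67.9 and 83.1 CPM in MB, against 156, 159, 150, 138 and 168 CPM in FB. The difference was −1.08 ± 0.09 (edgeR adjusted p = 9.01e-09), without overlap. Ergic1, beside it, was also lower in MB (−0.51 ± 0.07, adjusted p = 1.98e-05). Socs3 had 7.31, 11.7, 8.42, 8.18 and 5.07 CPM in MB, against 21.9, 34.5, 26.4, 19.0 and 26.4 CPM in FB (−1.66 ± 0.23, adjusted p = 1.53e-05). Zfp36 averaged 30.1 ± 6.9 CPM in MB and 46.9 ± 4.4 CPM in FB (−0.64 ± 0.15, adjusted p = 0.00276).

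Smaller differences were found for Ier2 and Zfp36l1. Ier2 averaged 228 ± 10 CPM in MB and 263 ± 16 CPM in FB (−0.21 ± 0.06, edgeR adjusted p = 0.0143), lost without FB replicate 3 or without the filter on low counts (0.0071 to 0.058). Zfp36l1 averaged 141 ± 18 CPM in MB and 169 ± 8 CPM in FB (−0.26 ± 0.08, adjusted p = 0.0203), lost without MB replicate 1, 2 or 4 or FB replicate 4 (0.0074 to 0.061). Ier3, a stress-inducible gene linked to cell survival, was higher in MB, at 53.3 ± 6.7 CPM in MB and 37.7 ± 5.3 CPM in FB (0.50 ± 0.13, adjusted p = 0.00573). Ier5 and Gadd45b did not pass, at 2.59 and 3.80 CPM in MB and 3.21 and 5.29 CPM in FB.

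**Figure D5:**
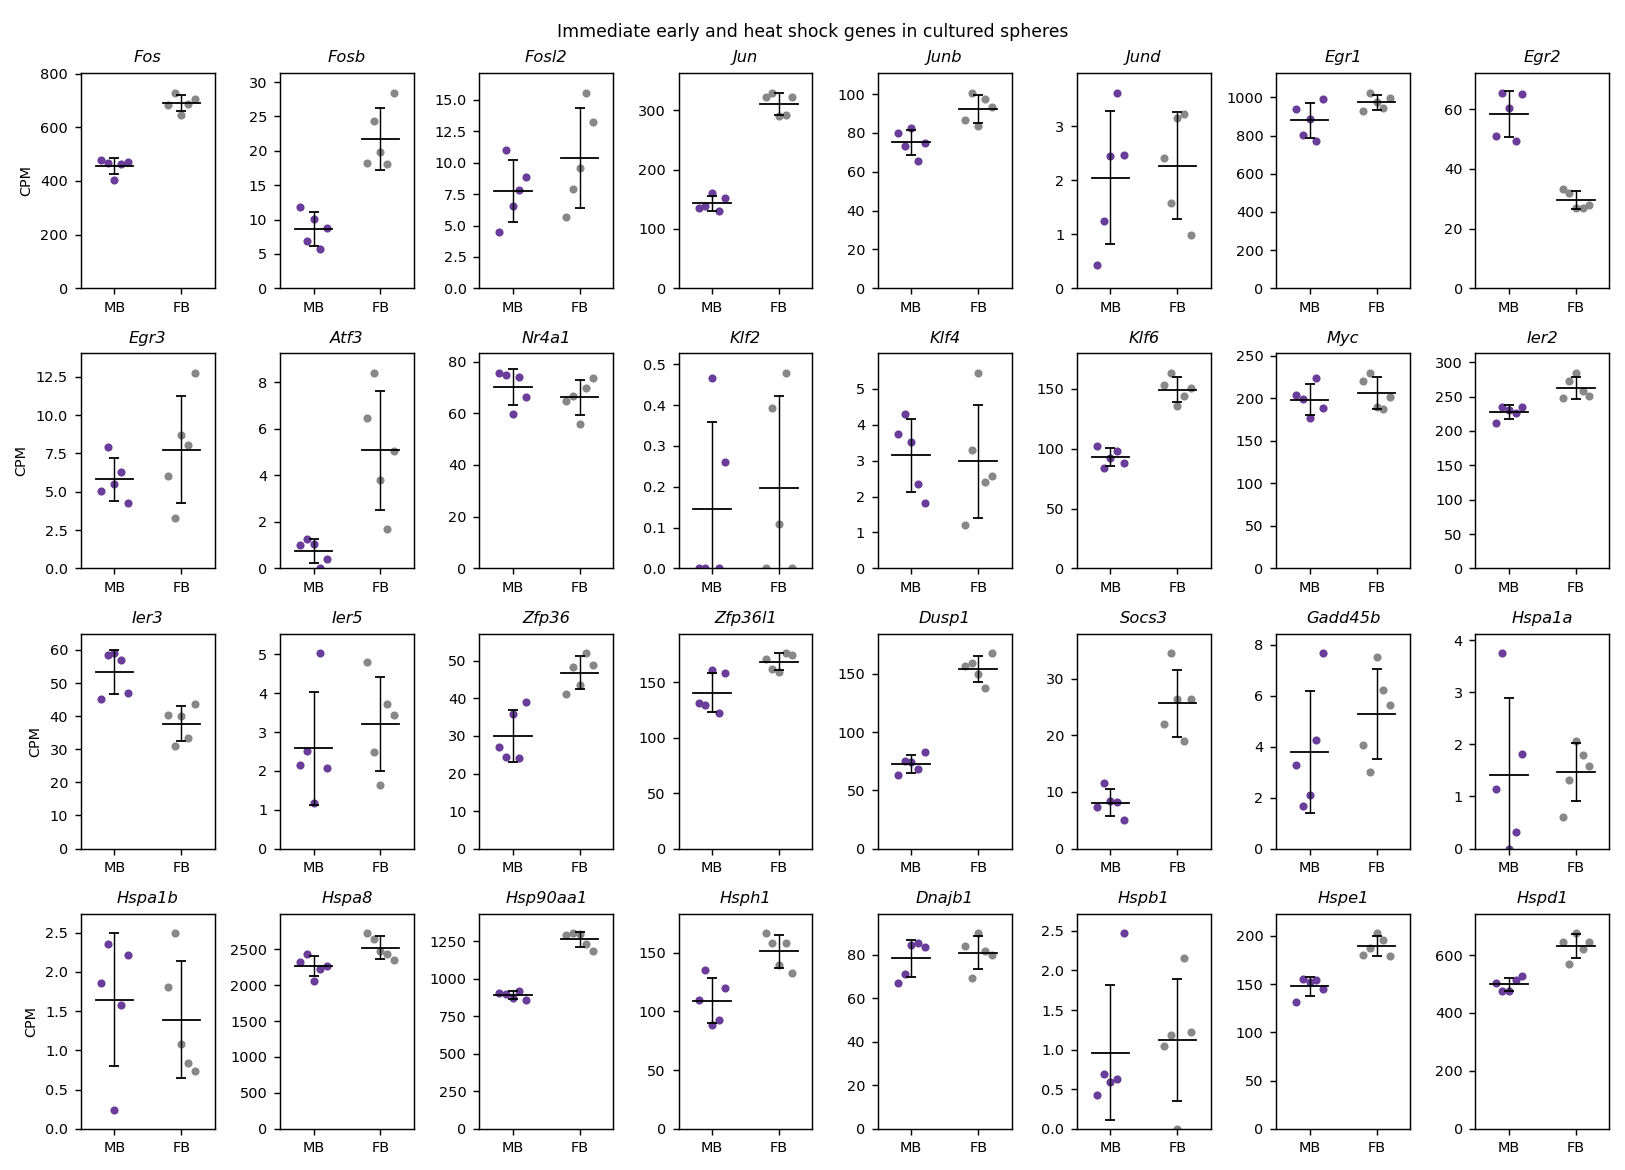
CPM (counts scaled to library size, vertical axis, from 0, a scale for each panel) of the 32 genes in MB and FB spheres (horizontal axis; 5 libraries each). Points are libraries and bars the mean ± SD; Fos, Jun, Dusp1, Socs3 and Hsp90aa1 lie lower in every MB library than in any FB library, and Egr2 lies higher.

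Of the 8 heat shock genes tested in spheres, Hsp90aa1 had the largest fitted difference. It had 905, 900, 872, 917 and 856 CPM in MB, against 1294, 1303, 1296, 1234 and 1182 CPM in FB (−0.50 ± 0.04, edgeR adjusted p = 3.2e-08). Hsph1 averaged 109 ± 19 CPM in MB and 151 ± 14 CPM in FB (−0.47 ± 0.11, adjusted p = 0.00196), with an overlap of single libraries. Hspa8, at 2262 ± 142 CPM in MB and 2522 ± 155 CPM in FB, differed by −0.16 ± 0.05 (adjusted p = 0.0217), a call lost without MB replicate 3 or FB replicate 1 or 2 (0.0093 to 0.091).

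Both chaperonin genes were lower in MB without overlap. Hspd1 had 504, 476, 474, 514 and 526 CPM in MB, against 646, 568, 675, 621 and 646 CPM in FB (−0.34 ± 0.05, edgeR adjusted p = 7.97e-05). Hspe1 had 132, 155, 152, 155 and 145 CPM in MB, against 181, 188, 203, 196 and 179 CPM in FB (−0.36 ± 0.07, adjusted p = 0.000483). Dnajb1 averaged 78.3 ± 8.6 CPM in MB and 81.0 ± 7.5 CPM in FB, and Hspa1a and Hspa1b had at most 27 and 19 counts in a library; none of the 3 passed.

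Per kilobase of exon, Hspa8 and Hsp90aa1 stood first of the 32 genes in both kinds of sphere, at 526 ± 33 and 226 ± 6 CPM per kilobase in MB and 586 ± 36 and 321 ± 13 CPM per kilobase in FB. Fos took place 4 in MB, at 194 ± 13, next to Egr1 at 196 ± 20 CPM per kilobase, 2 levels that lay within each other's spread. In FB Fos took place 3, at 293 ± 13 CPM per kilobase. Growth genes differed in the same libraries: of 15 cell cycle genes, 10 were lower in MB and none higher, and of 10 protein synthesis and nucleotide synthesis factors 9 were lower and none higher, Npm1 among them at 481 ± 21 CPM in MB and 698 ± 16 CPM in FB (−0.54 ± 0.05, edgeR adjusted p = 4.37e-08). Of 9 neural stem and radial glia markers tested, 8 were lower in MB and none higher, with 2791 to 3123 CPM summed in MB and 4922 to 5168 CPM in FB; Hes5, a Notch target, differed by −2.20 ± 0.10 and Vim (vimentin) by −0.84 ± 0.05. Of 8 oligodendrocyte lineage markers, 5 were lower in MB and 1 higher, with 2898 to 3586 CPM summed in MB and 3703 to 4140 CPM in FB. Of 10 astrocyte markers, 6 were higher and 3 lower, with 7505 to 7857 CPM in MB and 4876 to 5284 CPM in FB. Their part in these differences was not tested.

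Other genes of the same pathways were read from wider lists, beside the shares of all genes given above (16.9% higher and 24.0% lower at P70 against E18, 22.4% and 25.0% at E18 against E13, 15.3% and 14.3% in MB against FB). Of 30 further immediate early genes, 11 rose and 3 fell at P70 against E18. Klf9, a glucocorticoid- and thyroid hormone-induced factor, rose to 15.0 ± 5.4 units at P70, against 1.70 ± 1.14 units at E18 (2.57 ± 0.35, limma adjusted p = 3.58e-05). Gadd45g, a relative of Gadd45b, had 80.2 ± 18.8 units at P70 and 30.0 ± 5.9 units at E18 (1.38 ± 0.22, adjusted p = 3.2e-05). Plk2, a polo-like kinase, fell, with 4.38 ± 2.38 units at P70 and 20.6 ± 4.5 units at E18.

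Between E18 and E13 12 of 30 further immediate early genes tested fell and 4 rose. Those with the smallest p are known from neurogenesis as well as from stimulation: Btg2, an antiproliferative gene of neurogenic divisions, had 9.78 ± 2.89 units at E18 and 107 ± 21 units at E13 (−3.35 ± 0.26, limma adjusted p = 7.04e-10). Nr4a2 (Nurr1), needed by dopamine neurons, had 9.49 ± 2.85 units at E18 and 109 ± 44 units at E13. At E13 that level was above the 19.1 ± 10.9 units of E11 (2.57 ± 0.38, adjusted p = 4.82e-05); of the 30 genes tested then, 5 rose and 2 fell.

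Further cytosolic chaperones and cochaperones fell more often than they rose at E18 against E13, 20 against 8 of 39. The subunit Cct5 of the cytosolic chaperonin was among those that fell, at 211 ± 27 units at E18 and 535 ± 55 units at E13 (−1.35 ± 0.13, limma adjusted p = 1.96e-08). Hspa2, an Hsp70 best known from testis, rose to 156 ± 31 units at E18, against 2.25 ± 0.29 units at E13 (5.58 ± 0.21, adjusted p = 8.21e-15). Dnaja4, an Hsp40, rose to 25.8 ± 5.3 units at E18, against 1.08 ± 0.43 units at E13. All 7 ependymal and motile cilia markers tested rose in the same comparison.

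At P70 against E18, 13 of 38 of these chaperones rose and 5 fell. Cryab, a small heat shock protein like Hspb1, rose to 244 ± 134 units at P70, against 8.21 ± 3.27 units at E18 (4.70 ± 0.37, limma adjusted p = 3.85e-09). Bag3, the cochaperone that works with small heat shock proteins, had 20.7 ± 7.6 units at P70 and 3.99 ± 2.61 units at E18 (2.17 ± 0.29, adjusted p = 4.16e-06). In spheres Cryab was higher in MB, at 162 ± 9 CPM in MB and 52.7 ± 2.5 CPM in FB (1.62 ± 0.08, edgeR adjusted p = 4.29e-12), while 15 of the 39 genes of the list were lower in MB and 4 higher.

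Of 8 further mitochondrial chaperones and proteases, 4 fell and none rose at E18 against E13, as Hspd1 and Hspe1 did. Hspa9 (mortalin), the Hsp70 of the matrix, had 44.1 ± 3.8 units at E18 and 83.3 ± 16.8 units at E13 (−0.88 ± 0.16, limma adjusted p = 7.78e-05). Its exchange factor Grpel1 had 41.9 ± 3.8 units at E18 and 94.0 ± 8.3 units at E13. In spheres 3 of the 8 were higher in MB and 1 lower.

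The endoplasmic reticulum chaperones and unfolded protein response genes, 21 tested, had 4 rising and 5 falling at P70 against E18, near the shares of all genes, and 2 higher and none lower in MB. Of the heat shock factors, Hsf2 rose to 168 ± 80 units at E18, against 52.4 ± 34.2 units at E13 (1.77 ± 0.37, limma adjusted p = 0.000451), and was lower in MB, at 29.1 ± 3.5 CPM in MB and 50.1 ± 5.4 CPM in FB (−0.78 ± 0.13, edgeR adjusted p = 9.04e-05). Hsbp1, a protein that binds heat shock factor 1, fell at P70 against E18 (−0.75 ± 0.13, limma adjusted p = 0.0001) and was higher in MB (0.22 ± 0.06, edgeR adjusted p = 0.00788). Of the upstream factors of immediate early genes, 1 of 12 rose and 4 fell at P70 against E18; Srf, serum response factor itself, was the one that rose, to 13.3 ± 3.0 units at P70, against 5.12 ± 0.50 units at E18 (1.2 ± 0.2, adjusted p = 5.61e-05). Of 6 glucocorticoid-responsive genes, 4 rose and 1 fell at P70 against E18. This list is not separate from those above: Sgk1, Per1 and Nfkbia are also among the further immediate early genes. Fkbp5 is also among the further cytosolic chaperones and cochaperones. Per1, a clock gene with glucocorticoid response elements, had 21.6 ± 11.0 units at P70 and 5.98 ± 2.34 units at E18 (1.59 ± 0.31, adjusted p = 0.00036).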

How the data were processed

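Bulk RNA was read from 20 captured and 10 sphere libraries: polyA RNA, Smart-seq2 cDNA, tagmented with Tn5, per the labels' protocols, with no strand and no molecular identifiers. The submitters' processing notes name 3 tools (STAR 2.3, DESeq2 1.34.0, Salmon 1.6.0) and 2 builds (GRCm39, mm10), with no role for any. The captured table as deposited holds values other than counts, with no unit in its header. They step in reads per gene length, for some genes in parts of a read, so they behave as reads per kilobase scaled to library size. Lines with 11 repeated symbols (142 of 15139) were left out. The sphere table as deposited holds raw counts per gene.

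From the captured values, log2(value + 1) was fitted with limma 3.58.1 over all 20 libraries for genes listed at both ages; changes are on that scale, which understates those of low genes. Sphere counts were fitted with edgeR 4.0.16 (quasi-likelihood, TMM, filterByExpr). P-values were adjusted over all genes tested (Benjamini-Hochberg); a call is an adjusted p under 0.05. Reads were recovered as whole-number steps, within 0.01 of a step, for 11677 captured genes (77.9%). For 730 of these genes a step was taken as part of a read. The reads, rounded to whole numbers, were tested with edgeR as an alternative chosen after seeing the data. Spheres were also fitted with DESeq2 1.42.0. The tests were checked on simulated data with 200 changed genes. R 4.3.3 and Python 3.11.15 were used. Positions come from GENCODE vM21 and RefSeq (GRCm38.p6).

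The members and gene lists were chosen with earlier results of these data known. All 32 members are accounted for; from other lists, the genes named are among the up to 3 with the smallest p that passed in each comparison, and neighbours whose starts lie within 1000 bases. No 2 libraries agreed within sampling noise.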

Additional observations from a re-analysis of the deposited data

Results flagged for a closer look

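In 11 of 162 groups of 4 to 6 libraries (1 gene in 1 age or kind of sphere), 1 library lay far from the others by Dixon's test; chance alone marks about 1 group in 20. In the P70 captures, Egr1 was at 12.4 units in replicate 3, against at most 4.69 units in the other libraries, Zfp36 was at 32.8 units in replicate 4, against 17.5 to 22.5 units, and Gadd45b was at 58.0 units in the same replicate 4, against 23.0 to 35.1 units. Hspa8 was at 213 units in P70 replicate 6, against 16.4 to 75.1 units, and Hspb1 at 199 units in P70 replicate 2, against 25.8 to 60.1 units. In the embryonic captures, Jun was at 15.4 units in E18 replicate 1, against 3.275 to 6.40 units, Dusp1 at 19.7 units in E13 replicate 2, against 7.06 to 10.7 units, and Hspa8 at 320 units in that same replicate 2, against 55.2 to 98.4 units. Socs3 was at 3.98 units in E11 replicate 3, against 2.14 to 2.37 units. In MB spheres, Fos was at 403 CPM in replicate 3, against 465 to 477 CPM, and Hspb1 at 2.47 CPM in replicate 5, against 0.430 to 0.694 CPM.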

How the results depend on the processing

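Over the alternatives other than leaving out a library, 759 gene values kept their direction and their side of the threshold, 40 came to pass and 12 no longer passed; on leaving out single libraries these numbers were 1161, 23 and 31. None changed sign while called. E13 against E11 depended most on the setting. There, 1 immediate early gene was higher with a pseudocount of 0.1 or 5, with median centring, for the 2 ages alone and by edgeR on recovered reads, and 2 with library weights; 2, 2 and 1 were lower for the 2 ages alone, with library weights and by edgeR on recovered reads. For heat shock genes 2, 4 and 2 were lower in those 3 fits, and 1 with the replicate number as a block. All genes called there were 3811 for the 2 ages alone and 4873 with library weights, against 2421. With library weights, 4 immediate early genes rose at E18 against E13, where 3244 of all 11797 genes rose. At P70 against E11, 2 immediate early genes fell with library weights, and 2 with the replicate block. Of all 11117 genes, 4737 and 4427 fell in those 2 fits. No immediate early gene fell at P70 against E18 where a mean of at least 5 units was asked, which leaves Myc untested; edgeR on recovered reads called 2932 genes there, 1567 higher and 1365 lower. That test also split P70 against E11 into 2547 higher and 2336 lower, against 2738 and 4475, and E18 against E13 into 2585 and 2232, against 2644 and 2948.

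Leaving out 1 library at a time gave 0 to 1 immediate early genes higher and 0 to 1 heat shock genes lower at E13 against E11, 1 to 2 immediate early and 1 to 3 heat shock genes higher at E18 against E13, and 1 to 2 immediate early genes lower both at P70 against E18 and at P70 against E11. Immediate early genes higher at P70 against E18 numbered 6 to 10, and those lower in MB 9 to 12 with Atf3 counted. All genes called in either direction over these fits were 1773 to 2238 at E13 against E11. They were 5045 to 5405 at E18 against E13 and 4395 to 5186 at P70 against E18. At P70 against E11 they were 6691 to 7324, and between MB and FB 3422 to 3632. The replicate numbers did not pair the libraries: correlations of same-numbered libraries were −0.013 to 0.046 between MB and FB and −0.148 to 0.25 between ages, and in no comparison were all of them over 0.1. The highest, 0.25, was that of number 4 in E18 against E13. The replicate block changed no count of calls by over 1.5 times beyond those given. Low numbers of reads or counts limit, among others, Hspa1a, Hspa1b, Junb, Fos and Klf4 in captures, and Klf2, Hspb1, Jund, Atf3, Hspa1a and Hspa1b in spheres.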

Other observations

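Jund and Fos stood in opposite places in the captures and the spheres, which were deposited in separate tables and were not compared by a test. Among the 28 members listed in P70 captures, Jund stood at place 5 by mean (133 units) and Fos stood at place 25 (2.68 units). Among all 32 members in MB spheres, Fos stood at place 4 (194 CPM per kilobase of exon) and Jund at place 24 (1.23 CPM per kilobase). In FB spheres Fos stood at place 3 (293 CPM per kilobase) and Jund at place 25 (1.36 CPM per kilobase). Klf2, at a mean of 16.5 units in P70 captures, was last of the 32 in both kinds of sphere.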
